A study of Mus musculus with 8 samples.

Results

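The 10 circadian clock genes described here are Arntl, Clock and Npas2, the activators of the molecular clock, Per1, Per2, Per3, Cry1 and Cry2, its inhibitors, and Nr1d1 and Dbp, transcription factors that the clock drives. They were taken by symbol from the deposited count table, which holds 24411 gene rows, and all 10 were present and passed the filter on low counts. The table gives messenger RNA of whole aortas from 8 mice that lack apolipoprotein E and had eaten a Western-type diet for 12 weeks. In the 5 caIKK2EC mice, of genotype caIKK2(+/+) BMXCreERT2(+/-) ApoE(-/-), a constitutively active form of the kinase IKK2 with an EGFP reporter lies behind a loxP-flanked stop signal. Tamoxifen, at 1 mg per 20 g of body weight on 5 days, activates the Cre recombinase, which the Bmx promoter places in arterial endothelial cells. The 3 Control mice were littermates of genotype caIKK2(+/+) BMXCreERT2(-/-) ApoE(-/-), which carried the same silent transgene, lacked Cre and received the same tamoxifen and diet. caIKK2EC 1 and 3 were 18 weeks old and caIKK2EC 2, 4 and 5 were 19 weeks old, against 18 weeks in Control 1 and 2 and 19 weeks in Control 3. All mice were female except Control 3. The series speaks of switching the transgene on early or late in atherosclerosis, and the sources used here do not say which was done in these mice, nor at what hour of the day the aortas were taken.

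The clock is a feedback loop that runs in nearly every cell. ARNTL (also called BMAL1) pairs with CLOCK or NPAS2 and binds E-box sequences, which switches on the Per and Cry genes, Nr1d1 and Dbp. PER and CRY proteins then return to the nucleus and block the activators, while NR1D1 (REV-ERB alpha) binds RORE sequences and represses Arntl and Npas2. Messenger RNA of Arntl and Npas2 therefore peaks opposite to that of Nr1d1 and Dbp in the day of mouse peripheral organs, and Clock messenger RNA cycles little. Clocks of this kind run in the smooth muscle and the endothelium of the aorta.

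The DNA letters that clock proteins are known to bind can be seen beside some of these genes. In RefSeq promoter windows of GRCm38.p6, which run from 250 bases before to 50 after a gene's start, 9 of the 10 clock genes had an entry. Motifs were searched on both strands, and no motif overlapped another. The sequences shown are those of Per3 and Nr1d1, which were high in the same library, of Ciart, a clock repressor that was high there too, and of Arntl, which was low there. They give the 250 bases before the start of Per3, Nr1d1 and Ciart, and 30 bases around the RORE of Arntl, in lower case, 5′ to 3′ on the gene's strand. Capitals mark the D-box TTANGTAA in Per3, the E-prime box CACGTT, read on the other strand as AACGTG, in Nr1d1, the E-box CACGTG in Ciart and the RORE core TAGGTCA in Arntl.
Per3, chr4:151044666-151044915, minus strand: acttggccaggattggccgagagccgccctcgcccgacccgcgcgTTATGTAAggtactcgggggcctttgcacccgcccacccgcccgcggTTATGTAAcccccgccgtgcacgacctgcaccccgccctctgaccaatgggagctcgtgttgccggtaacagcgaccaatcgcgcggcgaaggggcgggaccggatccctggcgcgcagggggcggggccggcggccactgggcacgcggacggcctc
Nr1d1, chr11:98775378-98775627, minus strand: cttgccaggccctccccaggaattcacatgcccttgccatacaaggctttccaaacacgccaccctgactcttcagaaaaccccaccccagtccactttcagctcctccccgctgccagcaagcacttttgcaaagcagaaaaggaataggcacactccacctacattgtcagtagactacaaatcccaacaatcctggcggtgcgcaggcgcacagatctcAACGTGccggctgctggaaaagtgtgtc
Ciart, chr3:95882229-95882478, minus strand: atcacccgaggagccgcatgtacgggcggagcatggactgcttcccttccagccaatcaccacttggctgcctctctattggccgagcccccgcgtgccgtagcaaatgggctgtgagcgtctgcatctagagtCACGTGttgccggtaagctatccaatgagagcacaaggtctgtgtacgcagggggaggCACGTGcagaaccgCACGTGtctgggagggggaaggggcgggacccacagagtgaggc
Arntl, chr7:113207530-113207559, plus strand: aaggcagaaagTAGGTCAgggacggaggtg
The window of Per3 held 2 copies of the D-box, which DBP, TEF and HLF bind, at positions -205 and -158 from the gene's start. The window of Ciart held 3 E-boxes, at positions -116, -58 and -44. An E-box was found in 2 of the 9 clock genes, Per1 and Cry1, and in 8.09% of all 27025 genes with a window. The E-prime box was found in 3 (Cry1, Cry2 and Nr1d1) against 5.44% of all genes, the RORE core in Arntl against 2.97%, and the D-box in Per3 against 2.72%. A match is a description of the letters in the window and was not tied to binding in these aortas.

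Control 3 stood apart from the other libraries. It was the highest of the 8 libraries in 3785 of the 14679 genes tested (25.8%) and the lowest in 4137 (28.2%). Its summed marker levels were also at the edge for smooth muscle, macrophages and endothelium. In Control 3, those for fibroblasts (6670 CPM), brown fat (1090 CPM) and white fat (466 CPM) lay inside the range of the other libraries. Its 6 smooth muscle markers (such as Acta2 and Myh11) summed to 35700 CPM (counts brought to the same total in each library), against 9640 to 20300 CPM in caIKK2EC and 17700 and 21200 CPM in Control 1 and 2. Its 6 macrophage markers summed to 1720 CPM, against 7680 to 11000 CPM in caIKK2EC and 6200 and 6450 CPM in Control 1 and 2. That sum is mainly Lyz2 in the other libraries, with 541 CPM in Control 3 against 4060 and 4400 CPM in Control 1 and 2. Cd68, C1qa and C1qb were also lowest in Control 3. Adgre1 (83.7 CPM, against 90.7 and 80.2 CPM) and Csf1r (192 CPM, against 244 and 196 CPM) were near Control 1 and 2. Its 6 endothelial markers summed to 1370 CPM, against 2300 to 2920 CPM in caIKK2EC and 1960 and 2750 CPM in Control 1 and 2. Of these markers only Kdr was not lowest in Control 3, with 59.7 CPM against 56.2 and 38.5 CPM in Control 1 and 2. The markers of arterial wall were thus present in all 8 libraries. Of the 3 red cell markers, Hbb-bs and Hba-a1 were at 0. Alas2 had 0.925 to 6.36 CPM in caIKK2EC and 2.59 to 16.4 CPM in Control libraries, with the highest value in Control 3. Since Alas2 was detected in all 8 libraries, the values of 0 do not show that red cells were absent. In bulk tissue, fewer cells of a type and less RNA per cell cannot be told apart. The numbers in the deposited column names, read here as sequencing lanes, put caIKK2EC 1 and the 3 Controls in lane 7 and caIKK2EC 2 to 5 in lane 8. Total counts ran from 23461655 to 30808502 per library. Each value for the Control group below is therefore followed, where it matters, by the value without Control 3.

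The pattern of the clock genes differed between the 8 aortas. Control 3 had low Arntl and Npas2 with high Dbp, Per3, Nr1d1 and Per2, an order that in the textbook cycle belongs to the time away from the peak of Arntl. caIKK2EC 1 leaned the same way to a smaller extent in these genes other than Nr1d1. caIKK2EC 2 and 5 lay farthest on the other side, with high Arntl and Npas2 and low Dbp. These are descriptions, with no test, since the labels give no time of day and no clock time was derived.

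In Control 3, the log2 level stood 2.77 below the mean of the 8 libraries for Arntl and 1.67 below it for Npas2. In the same library it stood 2.85 above the mean for Dbp, 1.75 above for Nr1d1, 1.74 above for Per3, 1.49 above for Per2 and 1.12 above for Cry2. Control 3 was the highest library for 6 of the 10 clock genes (25.8% of all genes) and the lowest for 2 (28.2% of all genes). It stood more than 1 log2 unit above all other libraries for 4 of the 10 (Dbp by 2.30, Per3 by 1.41, Nr1d1 by 1.26 and Per2 by 1.14), and this held for 0.852% of all genes. It stood more than 1 log2 unit below all others for Arntl alone, by 1.94, and this held for 2.91% of all genes.

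In caIKK2EC 1, Npas2 stood 1.51 and Arntl 0.84 log2 units below the 8-library mean, while Per1 stood 0.82 and Dbp 0.55 above it. Nr1d1 (-0.12) and Cry2 (-0.14) lay slightly below the mean in caIKK2EC 1, unlike in Control 3. In caIKK2EC 2, Npas2 stood 1.16 and Arntl 0.86 above the mean and Dbp 1.34 below it. caIKK2EC 5 had the same order of Npas2, Arntl and Dbp, with Npas2 0.99 and Arntl 0.73 above the mean and Dbp 1.11 below it. Nr1d1 was at -1.02 in caIKK2EC 5 and at -0.42 in caIKK2EC 2, and Cry1 was at 0.33 and -0.37. caIKK2EC 3 and 4 lay between these ends, with Arntl 0.48 and 0.20 above the mean and Dbp 0.22 and 0.32 below it. Control 1 and 2 lay on the same side as most caIKK2EC libraries, with Arntl 0.45 and 0.89 above the mean and Dbp 0.13 and 0.27 below it. The 2 Controls without Control 3 thus fell inside the range of the 5 caIKK2EC libraries for Dbp and Npas2, and Control 2 lay just above it for Arntl. For Nr1d1, Control 1 lay inside the caIKK2EC range and Control 2 (236.7 CPM) above its highest value (156.9 CPM). For Cry2, Control 1 and 2 (43.1 and 59.2 CPM) both lay above the highest caIKK2EC library (41.0 CPM).

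**Figure D1:**
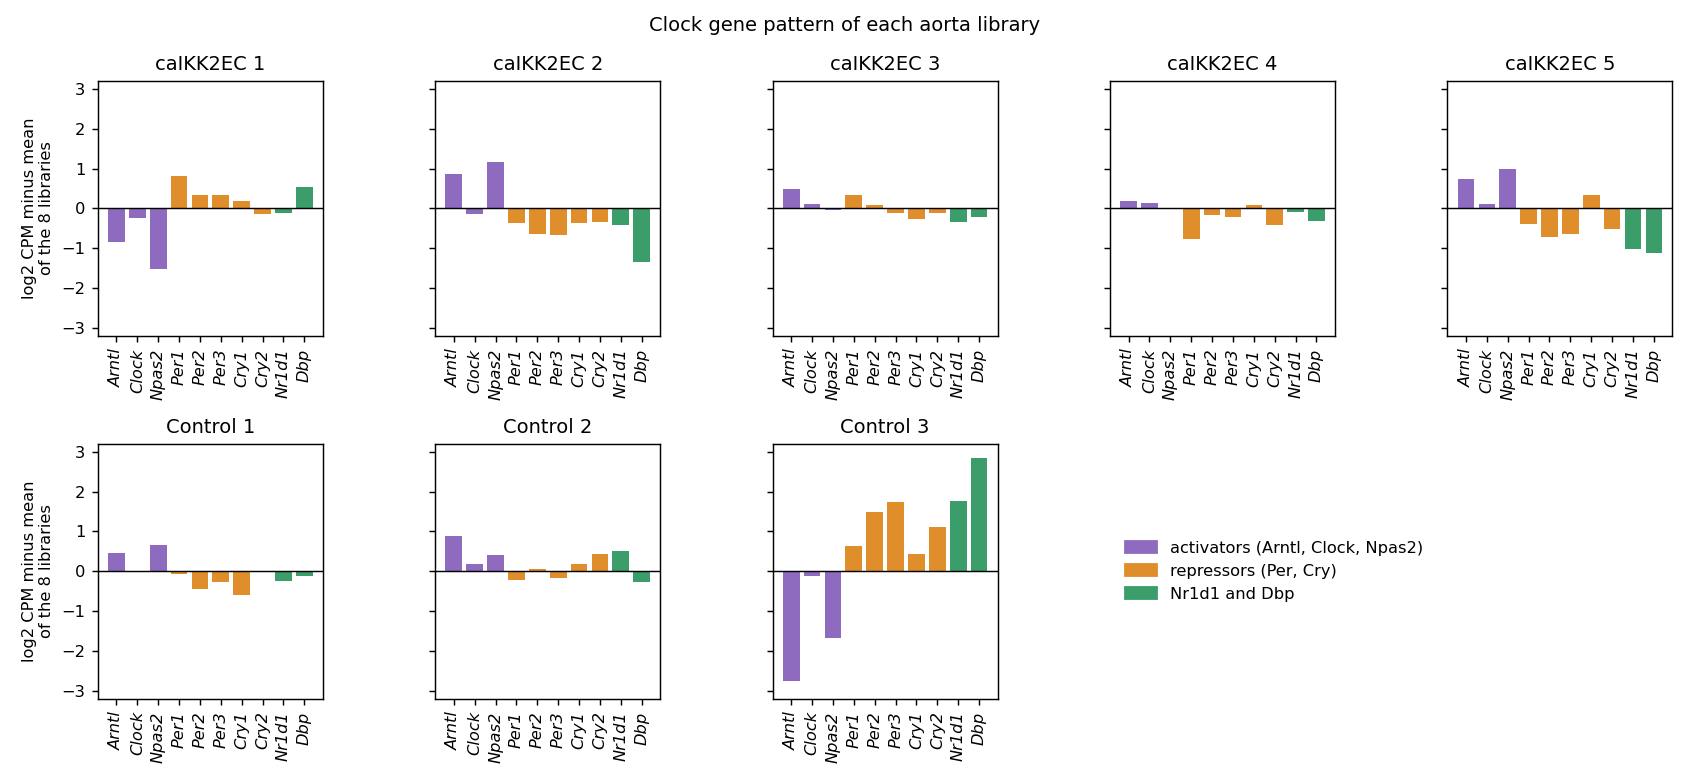
Bars give the difference of each library from the mean of the 8 libraries, in log2 CPM, for the 10 clock genes, with 1 panel per library and the 5 caIKK2EC libraries above the 3 Controls. Control 3 runs from 2.77 below the mean in Arntl to 2.85 above it in Dbp, and Clock stays within 0.23 of the mean in every library.

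Among the activators, Arntl (chromosome 7, 113207465 to 113314126, plus strand, GRCm38), the partner shared by CLOCK and NPAS2, had 9.87, 32.15, 24.7, 20.25 and 29.4 CPM in caIKK2EC 1 to 5 and 24.1, 32.9 and 2.52 CPM in Control 1 to 3. Control 3 was the lowest library by far, caIKK2EC 1 was the next, and the groups overlapped. Npas2 (chromosome 1, 39193731 to 39363236, plus strand), which can replace CLOCK, had 7.19, 46.2, 20.1, 20.4 and 41.0 CPM in caIKK2EC 1 to 5 and 32.5, 27.2 and 6.42 CPM in Control 1 to 3. The same pair of libraries was lowest, here at nearly the same level, and caIKK2EC 2 and 5 were highest. Clock (chromosome 5, 76209868 to 76304792, minus strand) had 60.0, 63.7, 75.4, 77.2 and 75.5 CPM in caIKK2EC 1 to 5 and 69.2, 78.95 and 64.7 CPM in Control 1 to 3. Its highest library was 1.31 times its lowest, against 13.03 times for Arntl and 7.20 times for Npas2.

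Of the Period genes, which code for inhibitors of the activators, Per2 (chromosome 1, 91415982 to 91459324, minus strand) had 47.9, 23.9, 39.8, 33.5 and 22.9 CPM in caIKK2EC 1 to 5 and 27.3, 38.8 and 105.4 CPM in Control 1 to 3. Per3 (chromosome 4, 151003652 to 151044665, minus strand) had 24.2, 12.1, 17.9, 16.5 and 12.3 CPM in caIKK2EC 1 to 5 and 16.1, 17.1 and 64.4 CPM in Control 1 to 3. For both genes Control 3 was the highest library, caIKK2EC 1 the next, and the other Controls lay within the caIKK2EC range. Per1 (chromosome 11, 69095217 to 69109960, plus strand) had a different order, with 157.0, 69.1, 112.2, 52.2 and 67.9 CPM in caIKK2EC 1 to 5 and 84.0, 77.0 and 137.8 CPM in Control 1 to 3. Here caIKK2EC 1 was above Control 3, and caIKK2EC 3 was the third highest.

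The Cryptochromes, which bind and block the activators together with PER proteins, differed from each other. Cry1 (chromosome 10, 85131700 to 85185064, minus strand) had 12.5, 8.43, 9.10, 11.6 and 13.7 CPM in caIKK2EC 1 to 5 and 7.19, 12.3 and 14.6 CPM in Control 1 to 3, and the groups overlapped throughout. Cry2 (chromosome 2, 92403646 to 92434043, minus strand) had 40.0, 35.1, 41.0, 33.1 and 30.95 CPM in caIKK2EC 1 to 5 and 43.1, 59.2 and 95.8 CPM in Control 1 to 3. Cry2 was the only 1 of the 10 clock genes whose groups did not overlap, although the gap between caIKK2EC 3 and Control 1 was small. Over all genes tested, the groups did not overlap with caIKK2EC lower in 3.22% and with caIKK2EC higher in 7.01%.

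Nr1d1 (chromosome 11, 98767932 to 98775333, minus strand), the repressor of Arntl, had 154.2, 125.6, 132.1, 156.9 and 82.5 CPM in caIKK2EC 1 to 5 and 142.3, 236.7 and 565.4 CPM in Control 1 to 3. Control 3 was the highest library, Control 2 the next, and Control 1 lay inside the caIKK2EC range. Dbp (chromosome 7, 45705088 to 45710203, plus strand), which passes the clock's timing on to its target genes through the D-box, had 75.5, 20.35, 44.2, 41.5 and 24.0 CPM in caIKK2EC 1 to 5 and 47.1, 42.75 and 371.9 CPM in Control 1 to 3. Control 3 was 8.28 times the mean of the other 2 Controls and 4.93 times caIKK2EC 1, the next library. The sources used here do not say whether counting used the strand, and 18.0% of the exon bases of Dbp lie over exons of Sphk2 on the other strand, as do 8.5% of those of Nr1d1 over Thra. Sphk2 had 57.0 to 61.9 CPM in caIKK2EC and 44.85 to 63.2 CPM in Control libraries, 62.7 CPM of it in Control 3. Thra had 71.9 to 133.3 CPM in caIKK2EC and 131.9 to 184.6 CPM in Control libraries, with Control 3 the highest. Per kilobase of exon, the mean level over the 8 libraries ran from 64.8 CPM per kb for Nr1d1 and 27.9 for Dbp through 16.8 for Per1 to 2.92 for Arntl and 2.35 for Per3.

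The ratio of Dbp to Arntl, whose peaks lie opposite each other, set the libraries apart most clearly. In CPM, it was 7.65, 0.633, 1.79, 2.05 and 0.814 in caIKK2EC 1 to 5 and 1.95, 1.30 and 147.0 in Control 1 to 3. Control 3 was far from all others, caIKK2EC 1 was the next, and the other 6 libraries lay between 0.633 and 2.05. On the log2 scale the ratio averaged 0.77 ± 1.40 in caIKK2EC (SD, n = 5) and 2.83 ± 3.76 in Control (SD, n = 3), a difference of -2.07, and without Control 3 the difference was 0.10. The log2 ratio of Nr1d1 to Per2, which peaks somewhat later, averaged 1.97 ± 0.31 in caIKK2EC and 2.47 ± 0.12 in Control, with the Controls at 2.38, 2.61 and 2.42 and Control 3 not apart from the others. caIKK2EC 2 (2.39) was inside the Control range, and caIKK2EC 1, 3, 4 and 5 (1.68, 1.73, 2.22 and 1.85) lay below it. The log2 ratio of Cry1 to Per3 averaged -0.56 ± 0.46 in caIKK2EC and -1.25 ± 0.84 in Control, with Control 3 the lowest library at -2.14, and the difference was 0.69 with all libraries and 0.25 without Control 3. These ratios were given as values, with no test.

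Over the 8 libraries Arntl ran against Per3, Dbp and Per2 and with Npas2. Of 9 relations computed, each between Arntl and another clock gene in log2 CPM, the closest were those with Per3 (r = -0.97, exact permutation p = 0.00295, adjusted over the 9 relations 0.00885; rho = -0.64, exact p = 0.0962), Dbp (r = -0.96, exact p = 0.00246, adjusted 0.00885; rho = -0.74, exact p = 0.0458) and Per2 (r = -0.91, exact p = 0.00595, adjusted 0.0134; rho = -0.62, exact p = 0.115). Npas2 ran with Arntl (r = 0.88, exact permutation p = 0.00141, adjusted 0.00885; rho = 0.76, exact p = 0.0368). None of the rank correlations passed the adjustment, with a lowest adjusted p of 0.206 in the exact permutation test. Without Control 3 and caIKK2EC 1, the 2 libraries farthest from the median of Arntl, r was -0.49 for Per3, -0.56 for Dbp, -0.25 for Per2 and 0.67 for Npas2 (n = 6, values only). The relations with Per3, Dbp and Per2 therefore rest on those 2 libraries. Nr1d1, a direct repressor of Arntl, had r = -0.79 (exact permutation p = 0.0483, adjusted 0.0804; rho = -0.45), and r = 0.03 without the 2 libraries. All libraries of lane 8 are caIKK2EC and only 4 libraries share lane 7, too few for a correlation within a lane.

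**Figure D2:**
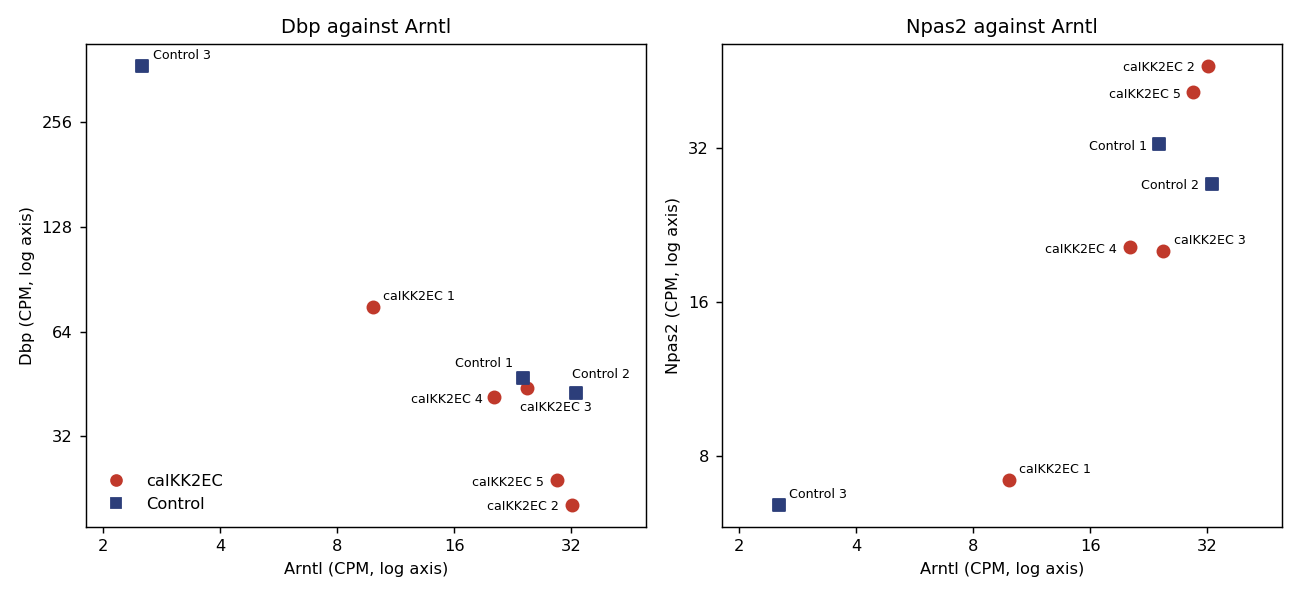
Dbp (left) and Npas2 (right) against Arntl, both in CPM on log axes, with 1 point per library, caIKK2EC as red circles and Control as blue squares. Control 3 has the lowest Arntl (2.52 CPM) and the highest Dbp (371.9 CPM), and caIKK2EC 1 is next in both. The other 6 libraries have 20.25 to 32.9 CPM of Arntl and 20.35 to 47.1 CPM of Dbp.

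The clock genes varied more between libraries than most genes. The SD of the log2 level over the 8 libraries had a median of 0.74 for the 10 clock genes and of 0.29 for all genes tested, and 5 of the 10 lay above the 90th percentile of all genes. Dbp (SD 1.29, percentile 98.4), Arntl (1.25, percentile 98.3) and Npas2 (1.07, percentile 96.7) were the most variable, followed by Nr1d1 (0.82) and Per3 (0.77). Clock was among the steadier genes (SD 0.15, percentile 14.8). Without Control 3 the median SD was 0.43 for the clock genes and 0.24 for all genes, and Npas2 (SD 0.90, percentile 95.4) was the only 1 of the 10 above the 90th percentile.

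The study set caIKK2EC against Control aortas to learn how active IKK2 in arterial endothelium changes RNA levels, and this comparison is read here for the clock genes. In the edgeR quasi-likelihood test over all 14679 genes, with Benjamini-Hochberg adjustment and a threshold of 0.05, none of the 10 clock genes was called higher (0.0% of all genes tested) or lower (0.0% of all genes tested). At an unadjusted p under 0.05, 0 were higher, against 9.66% of all genes, and 3 were lower (Cry2, Nr1d1 and Dbp), against 7.47% of all genes. The median log2 fold change was -0.44 for the clock genes and -0.02 for all genes, and without Control 3 it was -0.10 for the clock genes and -0.01 for all genes.

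Cry2 averaged 36.0 ± 4.36 CPM in caIKK2EC aortas (SD, n = 5) and 66.05 ± 27.0 CPM in Control aortas (SD, n = 3). Its log2 fold change was -0.87 (SE 0.22), and edgeR did not call it (adjusted p = 0.128). All 5 caIKK2EC libraries lay below all 3 Controls, and the exact permutation test, two-sided, gave p = 0.0357, which is the lowest p this design can give. Without Control 3 the log2 fold change was -0.51 (SE 0.16, edgeR adjusted p = 0.311). Within lane 7, caIKK2EC 1 stood 0.64 log2 units below the mean of all 3 Controls, Control 3 included. It had 40.0 CPM, against 43.1 and 59.2 CPM in Control 1 and 2.

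Nr1d1 averaged 130.3 ± 29.9 CPM in caIKK2EC aortas (SD, n = 5) and 314.8 ± 222.1 CPM in Control aortas (SD, n = 3). The log2 fold change of -1.27 (SE 0.38) was not called by edgeR (adjusted p = 0.152) or by the exact two-sided permutation test (p = 0.107). It was -0.54 without Control 3 (SE 0.26, edgeR adjusted p = 0.470). Within lane 7, caIKK2EC 1 differed from the mean of all 3 Controls, Control 3 included, by -0.79 on the log2 scale. It had 154.2 CPM, against 142.3 and 236.7 CPM in Control 1 and 2.

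Dbp averaged 41.1 ± 21.9 CPM in caIKK2EC aortas (SD, n = 5) and 153.9 ± 188.8 CPM in Control aortas (SD, n = 3). Of the 10 clock genes it had the largest fold change and the largest standard error. Its log2 fold change was -1.90 (SE 0.73, edgeR adjusted p = 0.237, exact two-sided permutation p = 0.214) and -0.13 without Control 3 (SE 0.46). Per3 (log2 fold change -0.97, SE 0.44, edgeR adjusted p = 0.300) and Per2 (-0.77, SE 0.41, edgeR adjusted p = 0.373) were likewise at 0.00 and 0.02 without Control 3. The lower group means of Dbp, Per3 and Per2 in caIKK2EC rested on 1 Control library. Within lane 7, caIKK2EC 1 was set against the mean of all 3 Controls, Control 3 included. On the log2 scale it differed by -0.27 for Dbp, -0.11 for Per3 and -0.01 for Per2. Against Control 1 and 2 alone, caIKK2EC 1 was higher in each of these genes, such as Dbp, with 75.5 CPM against 47.1 and 42.75 CPM.

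The activators and Cry1 differed little between the groups, and the errors of Arntl and Npas2 were wide. Arntl averaged 23.3 ± 8.77 CPM in caIKK2EC and 19.8 ± 15.6 CPM in Control aortas (log2 fold change 0.23, SE 0.64, edgeR adjusted p = 0.898), and the sign was the other way without Control 3 (-0.29, SE 0.39) and with lane as a covariate (-1.01). Npas2 averaged 27.0 ± 16.2 CPM in caIKK2EC and 22.0 ± 13.8 CPM in Control aortas (log2 fold change 0.29, SE 0.62, edgeR adjusted p = 0.858), with -0.14 without Control 3 and -1.62 with lane as a covariate. For Clock the log2 fold change was -0.01 (edgeR adjusted p = 0.976) with the narrowest error of the 10 (SE 0.12), and that of Cry1 was -0.04 (SE 0.25, edgeR adjusted p = 0.961). Per1 averaged 91.7 ± 42.8 CPM in caIKK2EC and 99.6 ± 33.3 CPM in Control aortas (log2 fold change -0.12, SE 0.35, edgeR adjusted p = 0.902), with 0.19 without Control 3 and 0.66 with lane as a covariate.

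The authors' deposited table gave lower values in caIKK2EC at an adjusted p under 0.05 for Cry2 (log2 fold change -0.88, standard error 0.25, adjusted p = 0.0154 by DESeq2) and Nr1d1 (-1.28, standard error 0.38, adjusted p = 0.0203). In the authors' deposited table, 1.51% of genes with an adjusted p were lower and 4.55% higher at that threshold. For Dbp (-1.91) the authors' deposited table gives no p-value. DESeq2 run here on the same counts also called Cry2 (adjusted p = 0.0152) and Nr1d1 (adjusted p = 0.0188). Without Control 3 it called neither (Cry2 -0.50, DESeq2 adjusted p = 0.162; Nr1d1 -0.53, DESeq2 adjusted p = 0.393). The marker sums of smooth muscle, macrophages and endothelium given above moved with Control 3, and their part in these differences was not tested. The sex of the mouse cannot be told apart from Control 3.

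**Figure D3:**
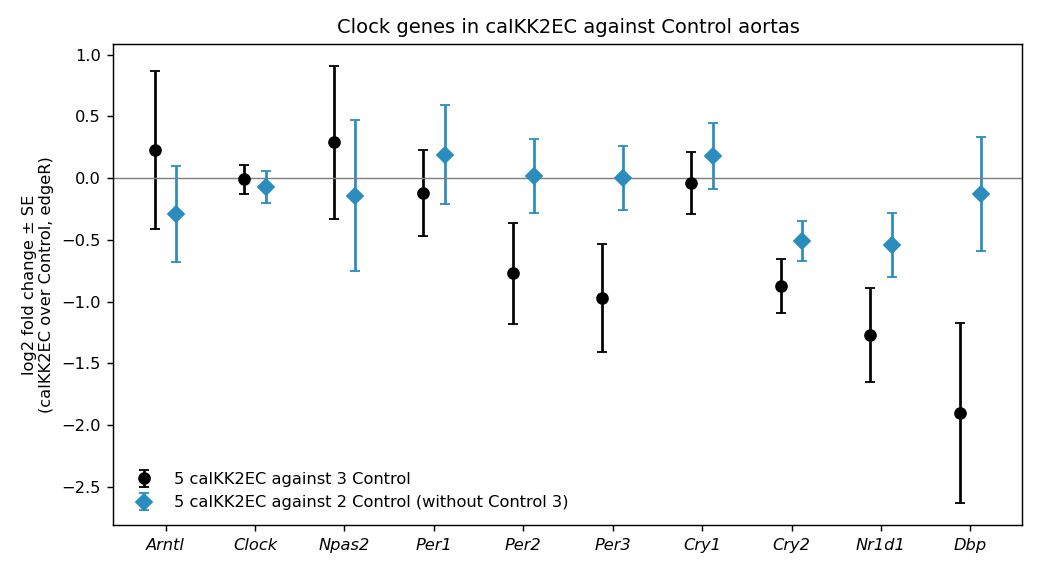
Log2 fold change of caIKK2EC over Control for the 10 clock genes, with all 8 libraries and without Control 3, where bars are 1 standard error of the edgeR fit. Dbp is at -1.90 with all libraries and at -0.13 without Control 3, while Cry2 is at -0.87 and -0.51.

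Other genes of the clock, 30 listed from textbook knowledge, of which 29 were tested, gave no call in either direction in the edgeR test (0.0% of all genes each way), and 1 higher (Bhlhe40) and 3 lower (Hlf, Rora and Tef) at an unadjusted p under 0.05, against 9.66% of all genes higher and 7.47% lower. Their median log2 fold change was -0.04. Tef and Hlf, which code for D-box binding proteins of the same family as DBP, were highest in Control 3, as Dbp was. Tef had 137.3, 62.1, 105.9, 83.7 and 66.3 CPM in caIKK2EC 1 to 5 and 107.5, 103.0 and 351.8 CPM in Control 1 to 3 (log2 fold change -1.04, edgeR adjusted p = 0.247, -0.21 without Control 3). Hlf had 14.7, 7.04, 10.9, 13.6 and 14.3 CPM in caIKK2EC 1 to 5 and 16.4, 14.5 and 75.3 CPM in Control 1 to 3 (log2 fold change -1.54, edgeR adjusted p = 0.181, -0.34 without Control 3). The groups of both genes overlapped with all libraries and also without Control 3.

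Ciart, the E-box gene whose promoter is shown above, had 4.895, 0.632, 2.135, 1.21 and 1.65 CPM in caIKK2EC 1 to 5 and 1.67, 1.29 and 15.3 CPM in Control 1 to 3, again with Control 3 highest and caIKK2EC 1 next. Its log2 fold change was -1.52 (edgeR adjusted p = 0.377) with all libraries and 0.51 without Control 3. Nr1d2, the close relative of Nr1d1, had 90.2, 38.3, 64.2, 63.2 and 40.5 CPM in caIKK2EC 1 to 5 and 66.8, 64.8 and 135.6 CPM in Control 1 to 3, with caIKK2EC 1 next after Control 3 as for Dbp. Nfil3, a repressor that competes for the D-box, ran the other way, with 35.7, 107.5, 48.25, 52.7 and 91.8 CPM in caIKK2EC 1 to 5 and 73.9, 60.6 and 20.7 CPM in Control 1 to 3. Control 3 and caIKK2EC 1 were its lowest libraries. Its RefSeq window holds a RORE core at position -12 from the gene's start.

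**Figure D4:**
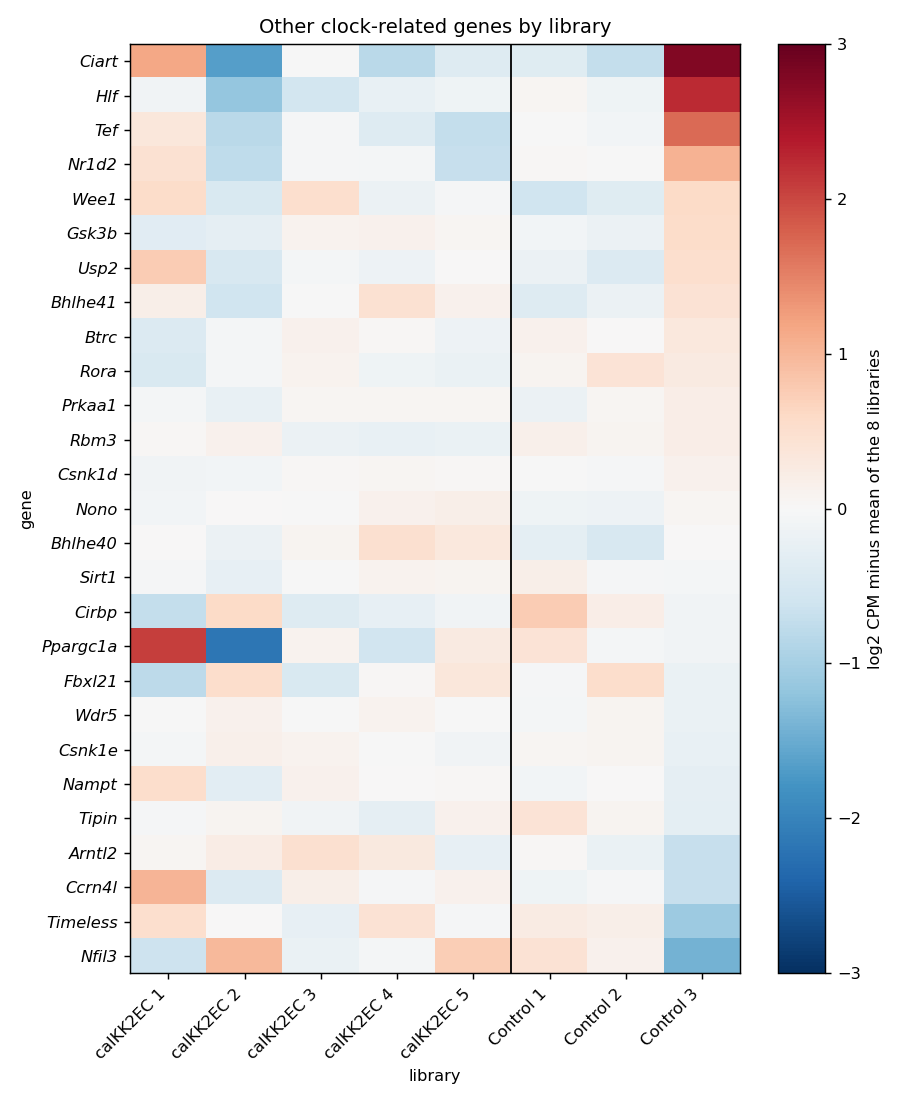
Heat map of other clock genes tested, in rows from the highest to the lowest difference of Control 3, with caIKK2EC 1 to 5 left of Control 1 to 3, where color gives the log2 CPM minus the mean of the 8 libraries (red above, blue below). The rows of Ciart, Hlf, Tef and Nr1d2 are deepest red in Control 3. The row of Nfil3 is deepest blue there, followed by Timeless, and most other rows, apart from Ppargc1a and Ccrn4l, are pale.

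Rora, whose product activates Arntl through the RORE on which NR1D1 represses it, averaged 56.9 ± 7.99 CPM in caIKK2EC (SD, n = 5) and 75.0 ± 8.38 CPM in Control aortas (SD, n = 3), and its log2 fold change was -0.40 both with all libraries (SE 0.13, adjusted p = 0.190 in edgeR, p = 0.0714 in the exact two-sided permutation test) and without Control 3. Bhlhe40, a repressor at E-boxes, averaged 194.9 ± 35.2 CPM in caIKK2EC and 148.2 ± 25.95 CPM in Control aortas (log2 fold change 0.40, edgeR adjusted p = 0.284). Arntl2 (log2 fold change 0.43) and Bhlhe41 (0.07) were not called by edgeR either. Rorb was too low to test, at no more than 0.427 CPM in any library.

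Of the regulators of clock protein stability and phosphorylation, Csnk1d, the kinase that marks PER proteins, had 157.2 to 175.2 CPM in caIKK2EC and 165.3 to 184.8 CPM in Control libraries, and its relative Csnk1e 100.7 to 121.0 CPM in caIKK2EC and 92.6 to 114.3 CPM in Control libraries. The log2 fold changes of the kinases Csnk1d, Csnk1e, Gsk3b and Prkaa1, the ubiquitin ligase genes Fbxl21 and Btrc and the protease gene Usp2 lay between -0.24 and 0.04. Those of the clock-linked genes Sirt1, Nampt, Nono, Wdr5, Timeless, Tipin, Wee1, Rbm3 and Cirbp lay between -0.45 and 0.27, and that of Noct, listed in the files under its older symbol Ccrn4l, was 0.51.

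Genes with a profile most like that of Arntl and Dbp were sought among 4036 tested genes whose log2 CPM averaged 1 or more and spanned 1 log2 unit or more, by Pearson's r over the 8 libraries, as a description with no p. Of the 10 genes with the lowest r to Arntl, 5 belong to the clock: Per3 and Per2 among the 10 clock genes, with Dbp, and Ciart (r = -0.94) and Tef (r = -0.93) from the wider list. The others were Trp53inp2 (-0.95), Atp9a (-0.92), Acot11 and Tmem205 (-0.91 each) and Mtor (-0.90). The 10 with the highest r to Dbp were Per3 and Tef (0.99 each), Per2 and Nr1d2 (0.96 each), Glis1 (0.95), Trp53inp2 and Ciart (0.94 each), Hlf and Atp9a (0.93 each) and Ccdc85b (0.92).

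The lists at the opposite ends held fewer clock genes. The highest r to Arntl belonged to Trmt13 (0.99), Rbak (0.97), Mboat1, Ccdc112 and Bcan (0.96 each), Sytl2 (0.95) and Secisbp2, Gadd45a, Lmo2 and Rpl12 (0.94 each), with Nfil3 at rank 39 and Npas2 at rank 64 of the 4036. Among the lowest r to Dbp were those of Rpl12, Arhgap28 and Zfp90 (-0.97 each), Sytl2 and Arntl (-0.96 each), Secisbp2, Zfp202 and Armcx6 (-0.95 each) and Nfil3 (-0.94). Reads of Rpl12, a ribosomal protein gene, may be split with near-identical copies, and its values are uncertain. Since Control 3 is extreme in most of these genes, r over 8 libraries largely ranks genes by that library. With Spearman's rank correlation, the lists for Arntl kept 1 of 10 genes at the high end and 1 of 10 at the low end, and the lists for Dbp kept 2 and 3.

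Per1, which glucocorticoid hormones also switch on directly, differed from the other Period genes, and genes known to respond to these hormones were read beside it. Of 16 such genes tested, edgeR called none higher (0.0% of all genes) or lower (0.0%), and at an unadjusted p under 0.05 there were 5 higher (Lcn2, Mt2, Cdkn1a, Ddit4 and Tsc22d3) and 0 lower, against 9.66% of all genes higher and 7.47% lower. Their median log2 fold change was 0.34, against -0.02 for all genes, and without Control 3 it was 0.17, against -0.01 for all genes. Lcn2, a secreted protein also induced by NF-κB, averaged 148.8 ± 42.8 CPM in caIKK2EC (SD, n = 5) and 63.1 ± 37.7 CPM in Control aortas (SD, n = 3), and its log2 fold change was 1.24 (SE 0.37, adjusted p = 0.153 in edgeR). The log2 fold change was 0.80 for the metallothionein gene Mt2 (edgeR adjusted p = 0.191), 0.50 for Cdkn1a (edgeR adjusted p = 0.242) and 1.06 for Ddit4 (edgeR adjusted p = 0.274).

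Tsc22d3 and Fkbp5, which glucocorticoids induce in many tissues, were picked to be set beside Per1 after their values were seen. Tsc22d3 had 208.5, 57.8, 155.4, 61.5 and 83.4 CPM in caIKK2EC 1 to 5 and 63.9, 65.3 and 38.8 CPM in Control 1 to 3. Fkbp5 had 74.0, 28.2, 84.6, 33.0 and 36.65 CPM in caIKK2EC 1 to 5 and 26.3, 38.9 and 54.0 CPM in Control 1 to 3. caIKK2EC 1 and 3 were the highest libraries of both genes, as they were the highest caIKK2EC libraries of Per1. The same 2 libraries were highest for 5 of the 16 glucocorticoid-responsive genes (Sgk1, Mt1 and Ddit4 beside these) and for 4.0% of all genes tested. Tsc22d3 and Fkbp5, from which this order was read, are among the 5, so the count is a description and no test. The rest had other orders, such as Dusp1, which was highest in caIKK2EC 2 (450.2 CPM, against 400.9 CPM in Control 1). caIKK2EC 1 and 3 are also the caIKK2EC mice of 18 weeks, and edgeR with age as a covariate called Tsc22d3 higher in caIKK2EC. Control 1 and 2 were 18 weeks old too. Against Control 3, of 19 weeks, their Tsc22d3 was higher, and their Fkbp5 and Per1 were lower. Control 3, high in Per1, was the lowest library for Tsc22d3 and the third highest for Fkbp5.

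**Figure D5:**
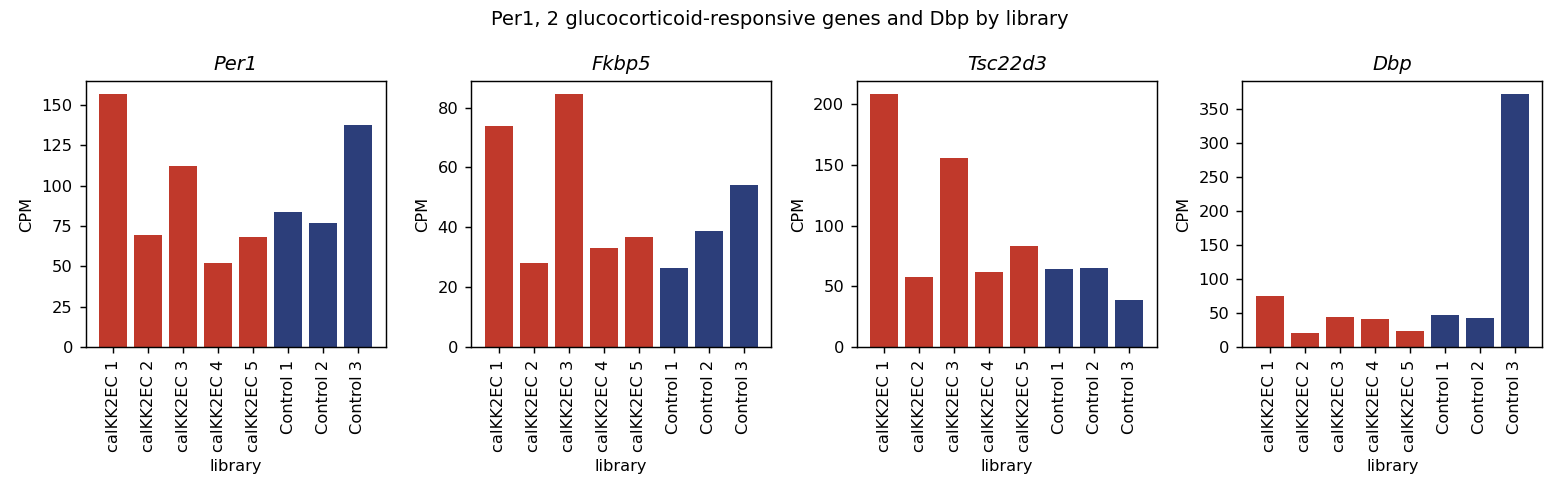
Bars of CPM in each library for Per1, Fkbp5, Tsc22d3 and, for the clock, Dbp, with caIKK2EC 1 to 5 (red) before Control 1 to 3 (blue) and a separate axis for each gene. caIKK2EC 1 and 3 have 157.0 and 112.2 CPM of Per1 and the highest values of Fkbp5 and Tsc22d3, and Control 3 has 137.8 CPM of Per1 with 38.8 CPM of Tsc22d3.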

How the data were processed

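Poly(A) RNA of the 8 aortas was made into strand-specific libraries, 1 per mouse, and read in single runs of 50 nt, per the labels' protocols. The authors deposited raw counts per gene, size-factor normalized values (a signal that is never negative), regularized log2 values, and a comparison table with log2 fold changes, a test score and p-values. STAR 2.7.0e, FastQC 0.11.5 and DESeq2 1.22.2 were used with build GRCm38 (mm10), per the submitters' processing notes. The sources used here name no counting program or annotation and do not say whether counting used the strand.

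Deposited counts were analysed with edgeR 4.0.16 (R 4.3.3): TMM scaling, filterByExpr by group, which left 14679 genes, and the robust quasi-likelihood test with no covariate. P-values were adjusted by Benjamini-Hochberg over all genes tested, with a threshold of 0.05. Log2 CPM used a prior count of 2. Exact permutation tests used all 56 splits into 5 and 3 libraries, on log2 CPM with a prior count of 0.5, and correlations all 40320 pairings. DESeq2 1.42.0 was an alternative, beside other filters and scalings, covariates and left-out libraries. The procedures were tested on simulated data. Coordinates and exon lengths are from GENCODE M21 on GRCm38, promoter windows from RefSeq, and sums and figures were made with Python 3.11.15. No pair of libraries of a group differed by as little as sampling noise (lowest chi-square per degree of freedom 16.92).

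The clock genes, the lists and the tests were chosen with earlier results of these data known. The rule named all 10 clock genes, every measured gene of the wider clock list, the 4 glucocorticoid-responsive genes with the smallest p, and for Arntl and Dbp the 10 genes with the highest and the 10 with the lowest r, leaving out clone-style symbols. A few genes that the rule named are counted in the totals and not reported here. Sphk2, Thra, Fkbp5, Tsc22d3 and the marker genes named fall outside it. Of the gene rows, 5938 had a total of 0 and 27 had names turned into dates. Marker sums not given elsewhere were 0.939 to 5.65 CPM in caIKK2EC and 1.24 to 7.65 CPM in Control libraries for B cells, 7440 to 9450 CPM in caIKK2EC and 5160 to 7310 CPM in Control libraries for fibroblasts, and 7.89 to 13.2 CPM in caIKK2EC and 10.6 to 15.8 CPM in Control libraries for nerve.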

Additional observations from a re-analysis of the deposited data

How the results depend on the processing

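With all 8 libraries and edgeR, none of the clock genes passed the threshold. Of 14679 genes, edgeR called 0 higher and 0 lower, and with age as a covariate 407 and 254. DESeq2 called 641 and 212 of 14463 genes to which it gave an adjusted p, and without Control 3, an alternative chosen after seeing the data, 341 and 31 of 14798. Leaving out 1 library gave 0 to 230 higher and 0 to 129 lower, with the highest counts without caIKK2EC 2. DESeq2 called 2 of the 9 clock genes with an adjusted p lower, Cry2 and Nr1d1. Of the glucocorticoid-responsive genes it called 1 higher (Lcn2), edgeR with age 2 (Cdkn1a and Tsc22d3), and DESeq2 without Control 3 again 2 (Lcn2 and Mt2). The median SD of the clock genes was 0.46 on the authors' regularized log2 values, which shrink low counts, against 0.74. The differences in the 3 log2 ratios kept their direction under the alternatives run, except that of Dbp to Arntl, which was 0.10 without Control 3.

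The sign of some log2 fold changes turned. Control 3 is the only male, so the fit with sex as a covariate takes the group difference from the other libraries. It is thus no separate alternative to leaving out Control 3. With sex as a covariate the values were -0.29 (Arntl), 0.51 (Ciart), 0.18 (Cry1), 0.01 (Csnk1d), -0.05 (Csnk1e), 0.08 (Gsk3b), -0.00068 (Nfil3), -0.14 (Npas2), 0.19 (Per1), 0.02 (Per2), 0.00025 (Per3), 0.04 (Prkaa1) and -0.05 (Timeless). With lane the values rest on caIKK2EC 1 against the 3 Controls, since all other caIKK2EC libraries are in lane 8. They were -1.01 (Arntl), 0.14 (Cry1), -0.04 (Csnk1e), -0.54 (Nfil3), -0.0072 (Nono), -1.62 (Npas2), 0.02 (Nr1d2) and 0.66 (Per1). DESeq2 without Control 3 gave -0.28 (Arntl), 0.52 (Ciart), 0.19 (Cry1), 0.02 (Csnk1d), -0.04 (Csnk1e), 0.09 (Gsk3b), -0.14 (Npas2), 0.20 (Per1), 0.03 (Per2), 0.01 (Per3), 0.05 (Prkaa1) and -0.04 (Timeless). Without both Control 3 and caIKK2EC 1, also chosen after seeing the data, edgeR gave -0.10 (Arntl), 0.14 (Cry1), 0.04 (Csnk1d), -0.03 (Csnk1e), 0.15 (Gsk3b), -0.53 (Ppargc1a), 0.05 (Prkaa1) and -0.15 (Timeless). Leaving out 1 library gave ranges of -0.29 to 0.82 (Arntl), -0.07 to 0.09 (Clock), -0.14 to 0.69 (Npas2), -0.39 to 0.19 (Per1), -1.08 to 0.02 (Per2), -1.27 to 0.00079 (Per3), -0.26 to 0.18 (Cry1), -1.09 to -0.51 (Cry2), -1.60 to -0.54 (Nr1d1), -2.33 to -0.13 (Dbp), -2.09 to 0.51 (Ciart), -0.00013 to 0.74 (Nfil3), -0.07 to 0.35 (Bhlhe41), -0.05 to 0.01 (Csnk1d), -0.05 to 0.11 (Csnk1e), -0.31 to 0.15 (Fbxl21), -0.18 to 0.35 (Usp2), -0.02 to 0.62 (Wee1), -0.05 to 0.50 (Timeless), -0.27 to 0.09 (Tipin), -0.13 to 0.04 (Prkaa1), -0.29 to 0.08 (Gsk3b), -0.08 to 0.05 (Sirt1) and -0.43 to 0.74 (Ppargc1a). The cause of these turns was not tested. Replicate numbers are shared between the groups, and the deviations of same-numbered libraries correlated at 0.335, 0.0989 and 0.0968, so the numbers were not taken as pairs. With the replicate number as a block edgeR called 0 genes, and the signs of Per1 (0.15) and Bhlhe41 (-0.10) turned. With 3 Controls, 1 of them apart from the others, differences smaller than those of the Controls among themselves could not be shown.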

Other observations

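Ppargc1a, a coactivator that links the clock to energy metabolism, differed widely among caIKK2EC aortas. It had 72.7, 3.79, 18.5, 11.6 and 20.9 CPM in caIKK2EC 1 to 5 and 23.04, 16.6 and 15.9 CPM in Control 1 to 3, with a log2 fold change of 0.46 (SE 0.75) that edgeR did not call (adjusted p = 0.801). The brown fat markers Ucp1, Cidea, Ppargc1b and Elovl3 summed to 1820, 57.6, 482, 347 and 524 CPM in caIKK2EC 1 to 5 and 861, 955 and 1090 CPM in Control 1 to 3, so that caIKK2EC 1 was highest and caIKK2EC 2 lowest in both. The white fat markers summed to 144 to 848 CPM in caIKK2EC, with the highest value in caIKK2EC 1, and to 322 to 592 CPM in Control libraries. The part of fat tissue in the levels of Ppargc1a was not tested.

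Noct, listed as Ccrn4l, was likewise highest in caIKK2EC 1. It had 96.9, 36.0, 54.4, 47.0 and 52.75 CPM in caIKK2EC 1 to 5 and 44.4, 46.8 and 29.9 CPM in Control 1 to 3 (log2 fold change 0.51, edgeR adjusted p = 0.408). Heart muscle markers summed to 702 CPM in caIKK2EC 1 and 36.4 to 69.6 CPM in caIKK2EC 2 to 5, against 1350, 57.6 and 26.9 CPM in Control 1 to 3. Skeletal muscle markers summed to 2.21 to 64.2 CPM in caIKK2EC and 4.36 to 125 CPM in Control libraries, with Myh4 at 0 in all, and T cell markers to 52.4 to 96.7 CPM in caIKK2EC and 20.5 to 57.7 CPM in Control libraries.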
